A study of Mus musculus with 20 samples.

Results

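The genes described here are 32 genes of the pancreatic acinar cell, taken by symbol from a gene table of 56258 genes. They were measured in 20 bulk RNA libraries of whole lymph nodes, 4 from each of 5 positions. All mice were Rag1-/- (B6.129S7-Rag1tm1Mom/J), a strain in which mature T and B cells do not form, and were 9 weeks old. The nodes drained the duodenum, the jejunum, the ileum, the cecum with the colon (ceco-colonic) and, as the reference outside the gut, the skin (inguinal). Whether the libraries of one node site stem from different mice is not stated in the labels; the p-values therefore cover the scatter among libraries, which may be technical. The genes were chosen because duodenal libraries 1 and 2 carried them far above the other libraries. That difference is therefore a description, and counts of calls in comparisons that include these libraries restate the choice.

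Acinar cells form the exocrine pancreas, which lies along the duodenum. They make digestive enzymes, mostly as inactive precursors called zymogens, store them in zymogen granules and release them into the duct that opens into the duodenum. The transcription factors PTF1A and RBPJL form the core of the complex that switches on enzyme genes, BHLHA15 (also called MIST1) shapes the secretory apparatus, and NR5A2 acts with them on the same genes. A lymph node has no acinar cells of its own.

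The complex of PTF1A and RBPJL binds a pair of short motifs, an E-box CACCTG and a TGGGAA box. Promoter stretches of 4 genes that hold both motifs are shown as examples of the regulatory side of the group. The distance between the boxes was not part of the match. The stretch of Amy2a2 is shown because it cannot be told apart from its neighbours. They were read from RefSeq promoters on build GRCm38.p6, 5′ to 3′ along the gene's strand. Capitals mark the E-box (CACCTG, or CAGGTG on the other strand) and the TGGGAA box. The Rbpjl stretch is chr2:164403080-164403127 (+), Cel is chr2:28563453-28563583 (-), Prss2 is chr6:41521597-41521680 (+), Ctrl is chr8:105933940-105934061 (-) and Amy2a2 is chr3:113356689-113356788 (-).
Rbpjl: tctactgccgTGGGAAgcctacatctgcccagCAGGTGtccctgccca
Cel: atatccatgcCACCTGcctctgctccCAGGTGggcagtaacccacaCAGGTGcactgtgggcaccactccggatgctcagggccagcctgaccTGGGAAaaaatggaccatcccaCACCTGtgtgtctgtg
Prss2: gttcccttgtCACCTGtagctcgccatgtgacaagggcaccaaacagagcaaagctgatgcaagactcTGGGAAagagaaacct
Ctrl: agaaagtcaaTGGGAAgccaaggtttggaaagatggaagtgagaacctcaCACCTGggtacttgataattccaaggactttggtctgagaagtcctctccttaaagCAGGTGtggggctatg
Amy2a2: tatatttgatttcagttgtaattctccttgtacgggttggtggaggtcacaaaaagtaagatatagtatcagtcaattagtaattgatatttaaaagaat

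Promoters of 300 bases were matched for 27 of the 32 genes, and 1 gene had a second promoter, which gave 28. The E-box occurred on either strand in 14 of these (50.0%), against 20.2% of all 32851 promoters of that length. The TGGGAA box occurred in 15 (53.6%), against 25.6%. Both occurred in 6 (21.4%), those of Cel, Rbpjl, Cela2a, Prss2, Klk1 and Ctrl, against 5.3%. The letters AAGGTCA, of the kind NR5A2 binds, occurred in 3 (10.7%; Cel, Klk1 and Cela1), against 4.7%. Amy2a2, Amy2a3 and Amy2a4 have the same promoter letters and the same transcript letters (100% identity), and none of the motifs lay in the Amy2a2 window. A match shows letters, not binding.

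Libraries held 148.2 to 304.6 M (mega counts) estimated counts. Levels are CPM (counts per M after TMM scaling), and levels of different genes are compared as TPM, which accounts for transcript length. The libraries kept their lymph node markers: 8 node genes, among them Ptprc and Ccl21a, summed to 4119 and 3817 CPM in duodenal libraries 1 and 2 and to 2509 to 5719 CPM in the other 18. The 32 acinar genes made up 5.95% of all counts in duodenal library 1 (95% Wilson interval 5.95% to 5.96%, counting error only). In duodenal library 2 they made up 3.64% (3.64% to 3.65%). With 20 further acinar genes the shares were 6.88% and 4.24%. The next library, jejunal 1, held 0.0185%, duodenal libraries 4 and 3 held 0.00686% and 0.00596%, and the remaining 15 held 0.00355% to 0.00477%. The label of the group thus holds for duodenal libraries 1 and 2, not for all 4 duodenal libraries. In bulk tissue, fewer cells of a type and less RNA per cell cannot be told apart.

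**Figure D1:**
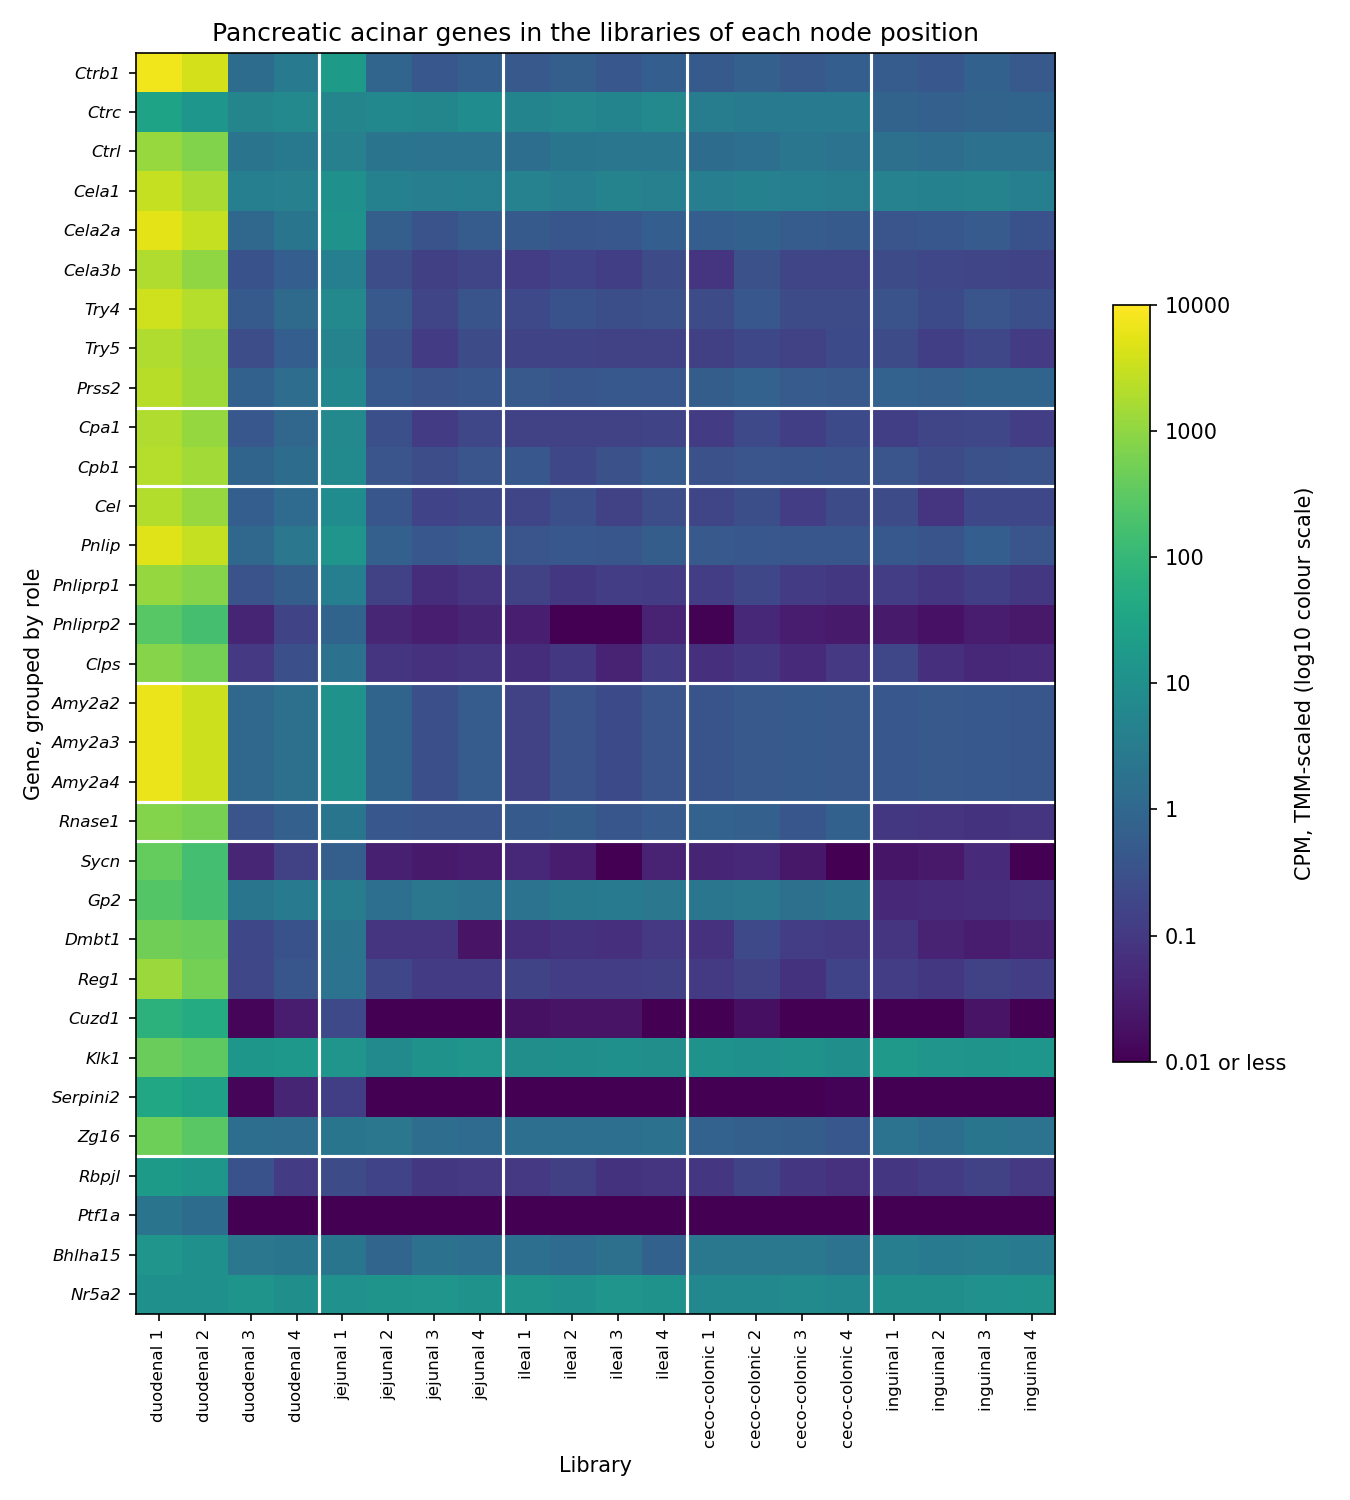
Level of each of the 32 acinar genes (rows, grouped by role) in each of the 20 libraries (columns), as TMM-scaled CPM on a log10 colour scale whose darkest colour is 0.01 CPM or less. Duodenal libraries 1 and 2 stand above all others for every gene but Nr5a2, and jejunal library 1 is the next strongest column.

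Of the 32 genes, 31 had their levels in duodenal libraries 1 and 2 above all 18 other libraries, and Nr5a2 was the exception. For 25 genes the lower of the pair was over 100 times the highest of the other 18. Ptf1a is not counted here, since its highest other library held 1.97 estimated counts, under the floor of 3 counts. The following counts include the pair that chose the genes and are not evidence of a difference. In edgeR's quasi-likelihood fit of all 4 duodenal libraries against the mean of the other positions, 28 of the 29 genes that passed the low-count filter were called, all higher, beside 16.7% of all genes (8.66% higher, 8.01% lower). Against the inguinal node alone 27 of 29 were called, all higher, beside 25.3% of all genes (13.2% higher, 12.1% lower). Sycn and Pnliprp2 were among the 29 but did not pass the filter in a fit without the duodenal libraries. Cuzd1, Serpini2 and Ptf1a did not pass the filter and were near 0 outside the pair. With limma-voom in place of edgeR, 16 and 2 genes were called. With duodenal libraries 1 and 2 left out, 2 and 3 were.

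The serine protease zymogens, which become trypsins, chymotrypsins and elastases in the gut, summed to 27423 and 15375 CPM in the pair over 9 genes. Ctrb1 (ENSMUSG00000031957), chymotrypsinogen B1, had the highest level per length of any member. It stood at 7632, 4127, 1.33 and 2.80 CPM in duodenal libraries 1 to 4. In jejunal libraries 1 to 4 it stood at 18.8, 0.889, 0.436 and 0.615 CPM. In ileal libraries it ranged from 0.422 to 0.655, in ceco-colonic from 0.475 to 0.708 and in inguinal from 0.421 to 0.725 CPM. Duodenal libraries 1 and 2 were far above all others, and jejunal library 1, duodenal libraries 4 and 3 and jejunal library 2 followed in that order, above every ileal, ceco-colonic and inguinal library. Per length, Ctrb1 reached 12227 and 7760.3 TPM in the pair.

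The elastases followed. Cela2a, the elastase 2A precursor, stood at 5662 and 2969 CPM in the pair and at 0.333 to 11.2 CPM in the other 18 libraries. Cela3b stood at 1937 and 1029.6 CPM against 0.0866 to 3.86 CPM. Cela1 stood at 3047 and 1689 CPM, but had a floor of 3.44 CPM everywhere else, so its lower value was 162 times the highest other library where that of Cela3b was 267 times.

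Trypsinogens were high as well. Try4 stood at 3677 and 2124 CPM, Try5 at 1979 and 1301 CPM, and Prss2 at 2289 and 1393 CPM, with no other library above 6.84, 4.95 and 6.30 CPM. The reference transcripts of Try4 and Try5 are 97.13% identical and those of Try4 and Prss2 89.08%, so reads may be divided between them with error. Ctrl, a chymotrypsin-like protease, stood at 1168.5 and 728 CPM and Ctrc, chymotrypsin C, which degrades trypsinogen, at only 30.9 and 14.3 CPM. Transcript Ctrc-201, which carries a loss-of-function label in the deposited annotation, held 35.3% and 49.7% of the Ctrc TPM in the pair, and Ctrc-202 held 61.1% and 46.3%. Ctrc is the member of this group whose separation was smallest, at 1.76 times the highest other library.

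The metallocarboxypeptidases, which trim amino acids from the end of peptides, were lower per length than the trypsinogens. Cpa1 reached 1551 and 1053 TPM in the pair and Cpb1 944 and 752 TPM, against 6655 and 4512 TPM for Try4. Cpa1 stood at 1981 and 1146 CPM in the pair and Cpb1 at 2168 and 1471 CPM. In the other 18 libraries Cpa1 ranged from 0.116 to 6.52 CPM and Cpb1 from 0.199 to 7.16 CPM.

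Among the lipases, Pnlip, the triglyceride lipase, was the highest at 5095 and 2899.7 CPM. Its cofactor colipase, Clps, stood at 818 and 549.7 CPM, and Cel, the bile salt-activated lipase, at 1991 and 1210.5 CPM. Pnliprp1 and Pnliprp2, relatives of Pnlip, stood at 1112 and 793 and at 278 and 170.5 CPM. Clps had the greatest separation of all members, 311 times the highest other library (1.77 CPM in jejunal library 1).

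The amylases break down starch. Amy2a2, Amy2a3 and Amy2a4 had the same estimate in every library, 6573 CPM each in duodenal library 1 and 3450.4 CPM in library 2. Their reference transcripts are identical, so reads cannot be assigned among them, and they are 1 measurement. The counts of members given here hold them as 3 genes. Taken as 1, they leave 30 members, of which 23 were over 100 times the highest other library, and the duodenal counts become 26 of 27 and 25 of 27. The amylase Amy2a5, whose transcript is 98.36% identical to that of Amy2a2, added 8524 and 3852 CPM. Amy2a1 was given 0.882 CPM in duodenal library 1 and 1056 CPM in library 2. Summed over Amy2a1 to Amy2a5, which is less open to that division, the levels were 28244 and 15261 CPM, 71.8 CPM in jejunal library 1, 12.3 and 5.56 CPM in duodenal libraries 4 and 3, and 2.06 to 3.83 CPM in the other 15.

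Proteins of the granule and other secreted proteins came next. Sycn, which encodes syncollin of the granule membrane, stood at 382 and 158 CPM in the pair and at 0.00508 to 0.671 CPM elsewhere. Reg1, the stone protein lithostathine, stood at 1279 and 571 CPM, Dmbt1, a scavenger receptor protein, at 500.2 and 419 CPM, and Rnase1, the pancreatic ribonuclease, at 785 and 596 CPM. Zg16, a granule lectin that goblet cells of the gut also make, stood at 486 and 284 CPM. Gp2, the main glycoprotein of the granule membrane, stood at 252 and 169 CPM. Klk1, a tissue kallikrein, stood at 429 and 319.5 CPM but also at 7.11 to 16.9 CPM in all other libraries. Cuzd1, a granule membrane protein, stood at 70.4 and 48.05 CPM and Serpini2, a serpin, at 37.2 and 26.9 CPM. Both of these stayed at or under 0.214 CPM in the other 18.

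The transcription factors were lower and less uniform. Ptf1a was counted at 1.999 and 1.34 CPM in the pair and had 0 counts in 17 of the other 18 libraries. The exception was ceco-colonic library 3 at 0.00717 CPM. Set against 3 counts in the shallowest library (0.0194 CPM), Ptf1a was at least 103-fold higher in duodenal library 1 and at least 69.0-fold higher in library 2. Rbpjl stood at 18.9 and 15.1 CPM and at 0.0735 to 0.328 CPM elsewhere, the highest of these in duodenal library 3. Bhlha15 stood at 13.4 and 10.4 CPM and at 0.747 to 3.78 CPM elsewhere. Nr5a2, at 10.5 and 10.4 CPM, lay inside the range of the other libraries (6.19 to 13.6 CPM). Nr5a2 was thus at a like level in libraries with and without the enzymes.

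**Figure D2:**
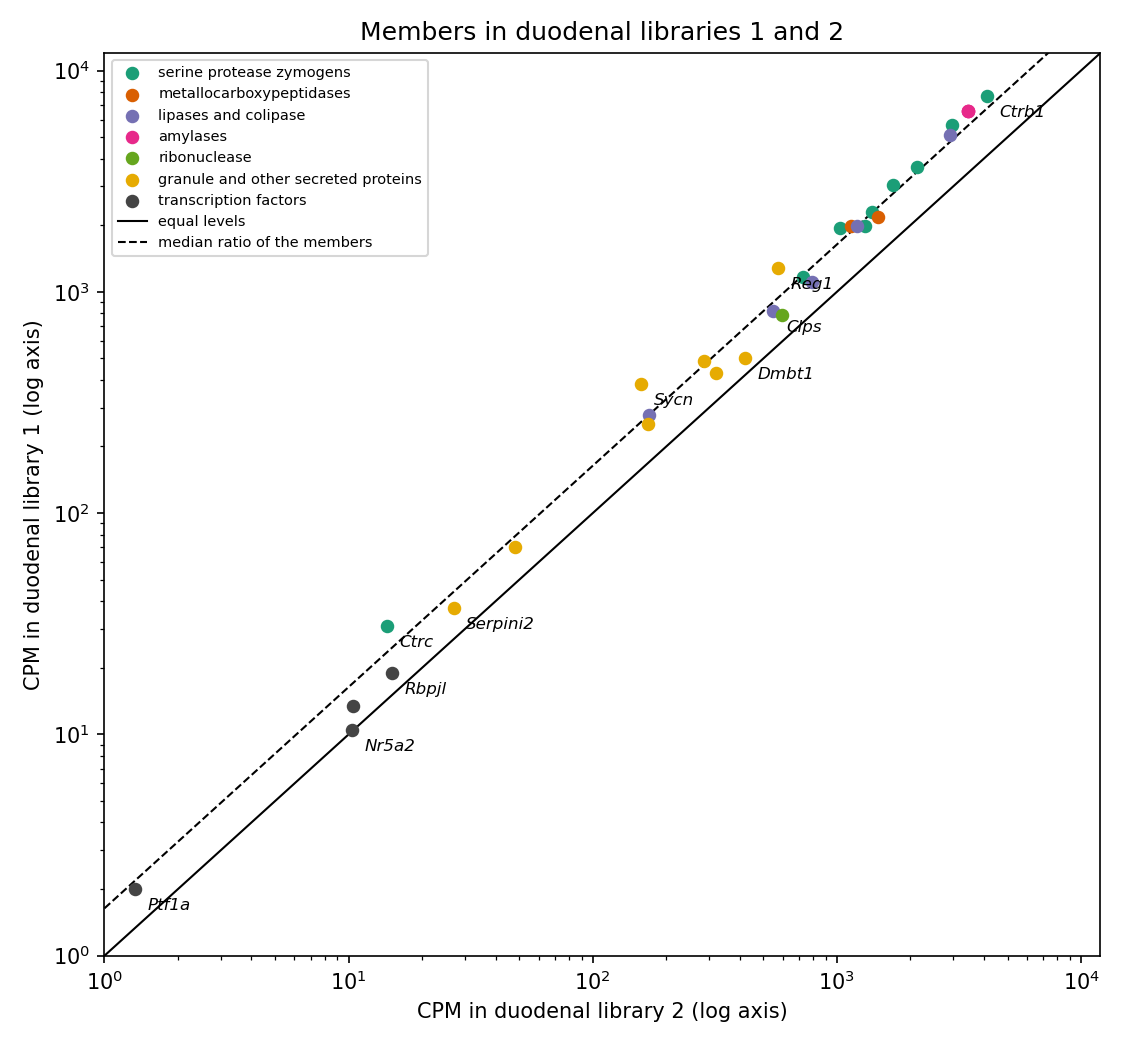
Level of each member in duodenal library 1 against duodenal library 2, in CPM on log axes, coloured by role, with a line of equal levels and a dashed line at the median ratio. Members lie close to the dashed line at 1.64 over levels from that of Ptf1a to that of Ctrb1, and Nr5a2 lies on the line of equal levels.

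The proportions among the members were similar in duodenal libraries 1 and 2. The ratio of library 1 to library 2 had a median of 1.64, with quartiles of 1.45 and 1.86, and was above 1 for all 32 genes. It was lowest for Nr5a2 (1.01), Dmbt1 (1.19) and Rbpjl (1.25) and highest for Sycn (2.42), Reg1 (2.24) and Ctrc (2.16). Ctrb1 took 11.8% of the members' summed CPM in library 1 and 11.3% in library 2, Pnlip 7.86% and 7.92%, and Cpa1 3.05% and 3.13%. In jejunal library 1, where the sum was 187 CPM in place of 64852, Ctrb1 took 10.1%, Pnlip 7.10% and Cpa1 3.495%. Other members took different shares there: Klk1 7.20% against 0.661% in duodenal library 1, Nr5a2 5.84% against 0.0162%, Ctrc 2.86% against 0.0477% and Amy2a2 5.99% against 10.1%. In ileal library 1, with a sum of 42.4 CPM, the order was different: Nr5a2 took 29.3% and Klk1 21.3%, whereas Ctrb1 took 1.11%.

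Duodenal libraries 3 and 4 and jejunal library 1 held the enzymes at low levels. Per 10000 of the level in duodenal library 1, the median member stood at 31.1 in jejunal library 1, 5.70 in duodenal library 4 and 2.56 in duodenal library 3, against 0.818 to 1.65 in the other 15. Jejunal library 1 was the highest of the 18 other libraries for 25 members. With it set aside, duodenal library 4 was the highest for 22. Pnlip shows the steps: 13.2 CPM in jejunal library 1, 2.37 and 1.03 CPM in duodenal libraries 4 and 3, and 0.363 to 0.675 CPM in the remaining 15. These 15 were not at 0. Pnlip had 1425 estimated counts over them, and Ctrb1 1766.

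Transcript estimates, as shares of a gene's TPM, were described without a test. Transcripts that were minor both in duodenal library 1 and in the libraries outside the pair were left out. Pnliprp1-206, for example, held only 0.307% and 0.379% in the pair. Some of those left out also differed. Cela2a-203, a retained-intron transcript, held 0.0278% and 0.0642% in the pair and 4.50% to 21.1% in the libraries neither duodenal nor jejunal 1. The following count covers only the transcripts kept. Of 19 members with several transcripts, 7 had one whose share in both libraries of the pair lay outside the range of the 15 libraries that were neither duodenal nor jejunal 1. They were Ctrl, Cela1, Cela3b, Reg1, Zg16, Rbpjl and Nr5a2, and 4 are given in full because their shares were seen to differ most plainly. For Zg16, transcript Zg16-202 held 99.8% and 99.6% in the pair, 51.2% in jejunal library 1, 13.1% and 10.5% in duodenal libraries 4 and 3, and 0% to 20.7% in the other 15. There Zg16-203 (median 41.7%) and Zg16-204 (33.7%) predominated. For Ctrl, the coding transcript Ctrl-201 held 99.7% and 99.6% in the pair and 51.9% to 62.2% in the 15, where a retained-intron transcript, Ctrl-202, held the rest.

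Cela1 and Reg1 showed the same split. Cela1-201, of 1108 bases, held 98.04% and 97.9% in the pair and 14.8% to 23.9% in the 15, where the shorter Cela1-206, of 762 bases, held a median of 67.6%. Reg1-201 held 87.4% and 90.3% in the pair and a median of 0% in the 15, where Reg1-203 had a median of 100%. For the other members of the 7 the gap was narrower or the counts were few: Cela3b-201 held 99.9% in both libraries of the pair against 57.9% to 94.3% in the 15, Rbpjl-202 held 19.9% and 25.4% against 0% (324 Rbpjl counts over the 15), and Nr5a2-201 held 78.6% and 67.2% against 44.5% to 65.95%. For Zg16, Ctrl, Cela1 and Reg1, jejunal library 1 lay between these patterns or near that of the pair, with 51.2% Zg16-202, 87.03% Ctrl-201, 70.4% Cela1-201 and 91.8% Reg1-201. The counts behind the 15 libraries are few for Reg1 (412 over all) and larger for Zg16 (4170), Ctrl (5579) and Cela1 (12189). Single-transcript members such as Ctrb1, Try4, Sycn and Rnase1 cannot show such a split.

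**Figure D3:**
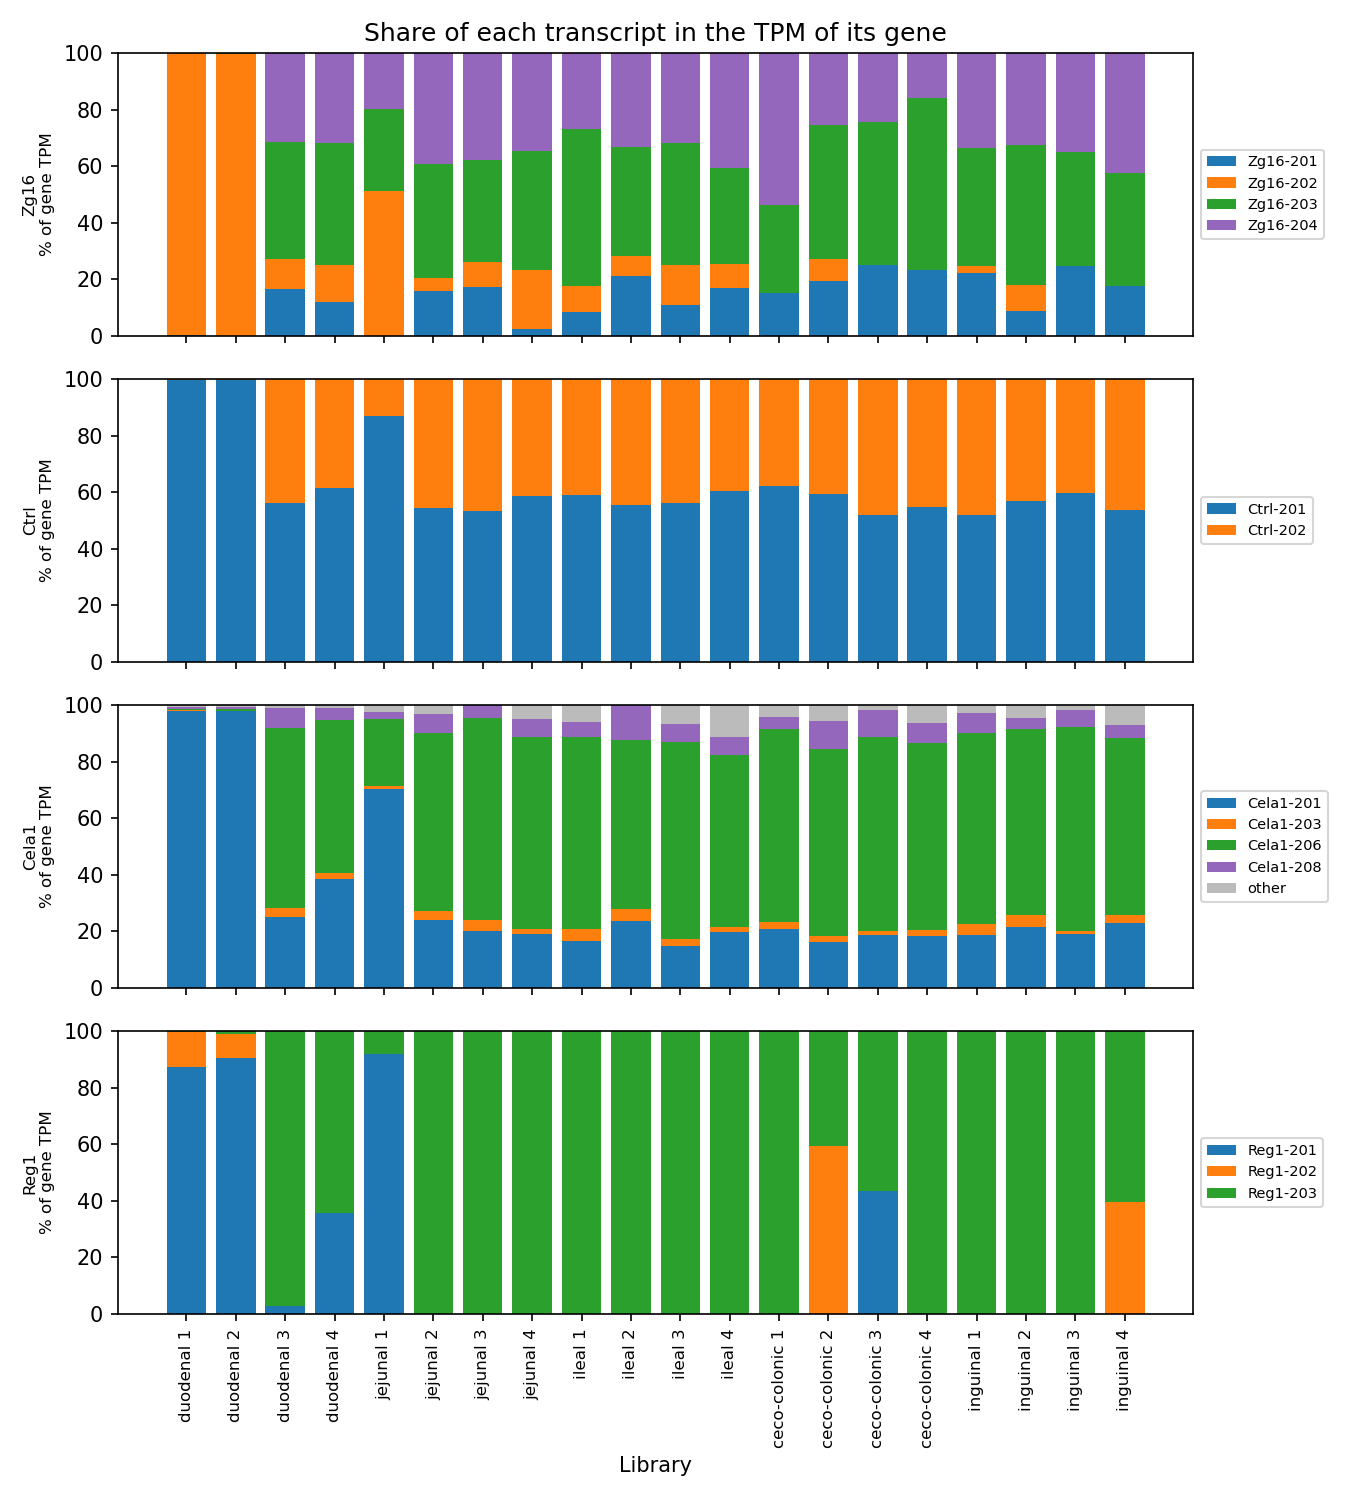
Stacked bars give the share of each transcript in the TPM of its gene, in percent, for Zg16, Ctrl, Cela1 and Reg1 in the 20 libraries. In duodenal libraries 1 and 2 a single transcript fills 87.4% or more of every bar, whereas other transcripts take up most or much of the bars outside duodenal libraries 1 and 2 and jejunal library 1.

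Genes that are not members but had a pattern like theirs were named by the lower of duodenal libraries 1 and 2 over the highest of the other 18, with 0.05 CPM added to both, among genes with at least 5 CPM in the pair. The first 20 include Pla2g1b, a secreted phospholipase (ratio 272), the trypsinogen Prss3b (257), Spink1, the trypsin inhibitor of the gland (225), Amy2b (223), Pdia2, a pancreatic protein disulfide isomerase (142), Amy2a5 (121), the water channel Aqp12 (68.4) and Cckar, the cholecystokinin receptor (62.5). Also among them were Reg2, Reg3d, Reg3b, Reg3a, Tff2, Try10, Tmed6, Prss3, Prss1l, Prss3l and Klk1b5. Of all genes at that level, members included, 41 had this ratio, with 0.05 CPM added to both, over 100, and 25 of these were members. Prss3, Prss1l and Prss3l had ratios between duodenal libraries 1 and 2 of 4.08, 5.78 and 5.35, above those of any member, and Reg3a had 0.504.

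Lists of other cell types were read beside the enzymes. Islet hormone genes did not accompany them: Ins1 stood at 0.0407 and 0.0195 CPM in the pair, Ins2 at 0.0545 and 0.0394 CPM, and Sst at 0 and 0.0145 CPM, and 16 islet genes summed to 2.09 and 1.71 CPM against 0.984 to 2.29 CPM elsewhere. Pdx1, a factor of islet and pancreatic progenitor cells, stood at 0.233 and 0.136 CPM and at 0 in the other 18. Duct genes summed to 166 and 147 CPM, inside the range of the others (41.5 to 259 CPM). Counted by gene, 5 of 10 duct genes were called higher and 0 lower in duodenal nodes against the mean of the 4 other positions. Over all genes 8.66% were called higher and 8.01% lower. Within the duct list Muc1, a mucin of glandular epithelium, stood at 9.17 and 5.61 CPM against a highest value of 1.76 CPM elsewhere.

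The summed list of 8 general epithelial genes did not separate the pair, at 87.02 and 76.8 CPM against 26.0 to 106 CPM. By gene, 5 of the 8 were called higher and 1 lower in duodenal nodes against the mean of the 4 other positions. Epcam lay inside the range of the others. Keratins of simple epithelium from that list, named after their values were seen, were higher in the pair. Krt8 stood at 8.94 and 5.65 CPM against at most 0.972 CPM in the other libraries, and Krt18 at 7.84 and 5.05 CPM against at most 0.499 CPM. Among 12 intestinal epithelial genes the sums were 71.3 and 56.9 CPM against 3.59 to 6.42 CPM, of which Reg3b alone gave 63.3 and 45.6 CPM. The rest of that list together also stood in the pair above the sum of the whole list in every other library. Of the 11 intestinal genes tested, 5 were called higher and 0 lower in duodenal nodes against the mean of the 4 other positions. Over all genes 8.66% were called higher and 8.01% lower. The defining enterocyte genes Sis, Alpi and Fabp2, given as examples, stayed at or under 0.183 CPM in the pair. Among 9 gastric and duodenal gland genes, which summed to 105.9 and 50.5 CPM, Tff2 gave 103 and 47.96 CPM. Gkn1 was at 0 in the pair and Gkn2 at 0 and 0.00483 CPM. Salivary genes Smr3a, Dcpp1 and Prol1 were at 0 in the pair.

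Smooth muscle genes took another course. Their sum of 6 genes was 1285 CPM in duodenal library 2 and 1295 CPM in library 3, but 279.8 CPM in library 1 and 421 CPM in library 4, so they did not follow the enzymes. Adipocyte genes summed to 55.7, 207, 300.45 and 118 CPM in duodenal libraries 1 to 4. Genes of protein folding in the endoplasmic reticulum summed to 1997 and 1726 CPM in the pair against 1557 to 1934 CPM in the other 18. Of that list Fkbp11 was apart, at 11.5 and 6.59 CPM against at most 2.67 CPM. The part of these cell types in the acinar levels was not tested.

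**Figure D4:**
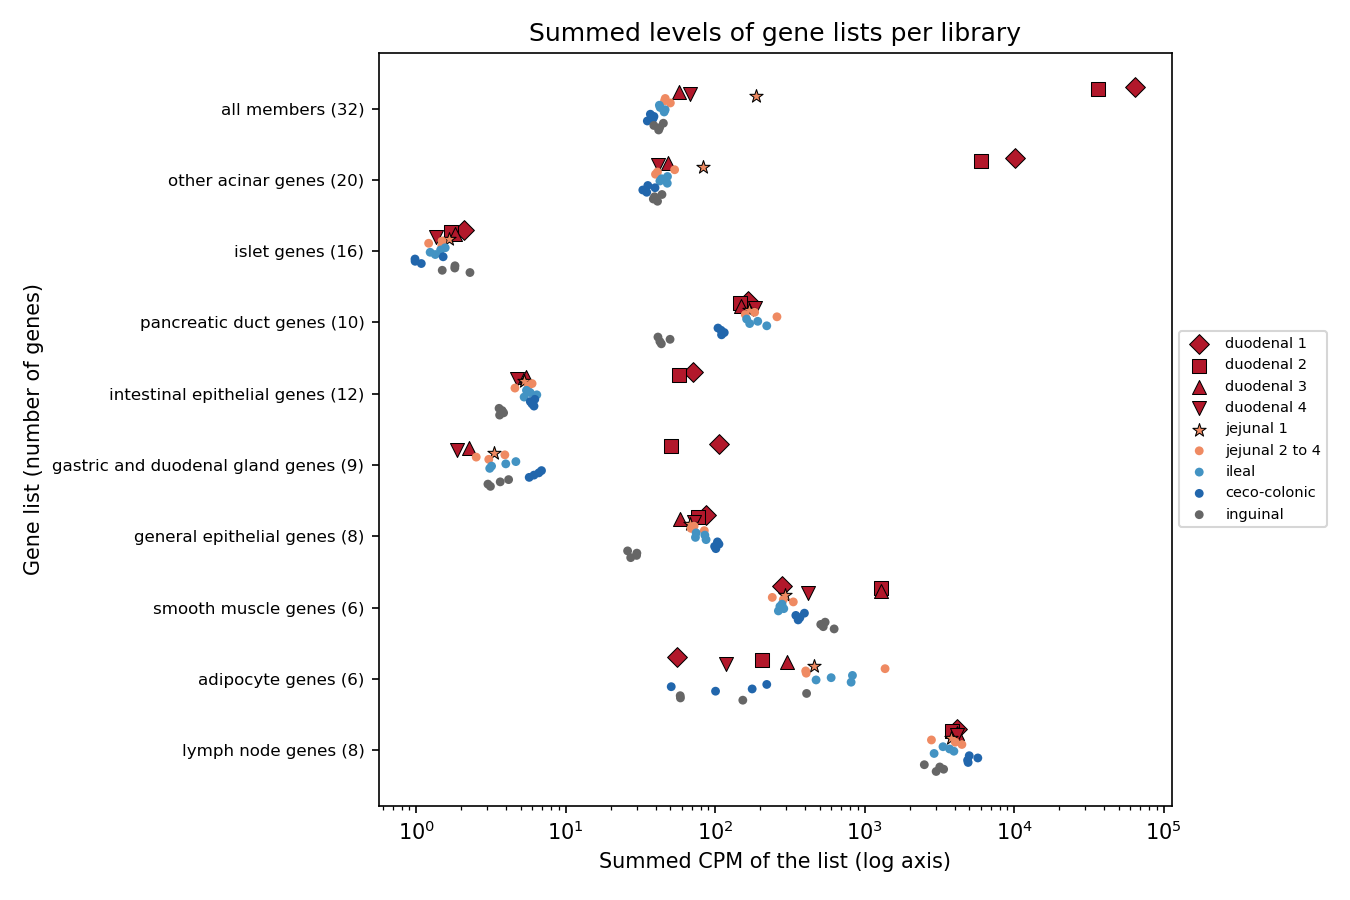
Summed CPM of 10 gene lists in each of the 20 libraries, on a log axis, with duodenal libraries and jejunal library 1 given their own symbols. The acinar lists separate duodenal libraries 1 and 2, and so do, at lower sums, the intestinal epithelial and the gastric and duodenal gland lists. Most of the intestinal sum came from Reg3b, and nearly all of the gland sum from Tff2. Sums of the islet, duct and lymph node lists do not, though single duct genes were higher, and the smooth muscle list sets apart duodenal libraries 2 and 3.

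The choice of genes did not set the 4 positions other than duodenal against each other. The high levels in jejunal library 1 were, however, already known from earlier results of these data. Calls that rest on this library therefore restate what was known. Differences among these positions were tested in a fit of those 16 libraries only. There 27 members passed the filter and Ptf1a, Serpini2, Cuzd1, Sycn and Pnliprp2 did not. With edgeR (quasi-likelihood, adjusted after Benjamini and Hochberg), 23 of 27 were called among the positions, beside 32.1% of all genes. Without jejunal library 1, 8 of 27 were called, beside 31.4% of all genes: Gp2, Ctrc, Rnase1, Nr5a2, Zg16, Prss2, Bhlha15 and Klk1. With the replicate number as a block 7 were called, with DESeq2 9 and with limma-voom 7. With the 3 identical amylases taken as 1, the counts were 21 of 25 and, without jejunal library 1, 8 of 25.

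Gp2 had the largest difference between gut and inguinal nodes among the members that were called in each gut position. It stood at 3.39, 1.58, 2.35 and 1.92 CPM in jejunal libraries 1 to 4, at 1.93, 2.62, 2.95 and 2.42 CPM in ileal, at 2.24, 2.50, 1.67 and 2.04 CPM in ceco-colonic, and at 0.0484, 0.0543, 0.0611 and 0.0702 CPM in inguinal libraries. No gut library came near the inguinal range. The log2 fold change against inguinal was 5.30 ± 0.267 (SE) for jejunal, 5.39 ± 0.268 for ileal and 5.15 ± 0.267 for ceco-colonic nodes. Adjusted p was 1.71e-10, 1.69e-10 and 3.99e-10 by edgeR. Duodenal libraries 3 and 4, at 2.17 and 2.77 CPM, lay within the gut range. Outside the pancreas Gp2 is a known marker of the M cells that overlie lymphoid follicles.

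Ctrc was graded over the positions. It stood at 5.34, 6.49, 5.61 and 8.14 CPM in jejunal libraries 1 to 4, at 5.14, 5.89, 5.22 and 6.69 CPM in ileal, at 3.32, 3.17, 3.18 and 3.22 CPM in ceco-colonic, and at 0.833, 0.686, 0.803 and 0.857 CPM in inguinal libraries. Jejunal and ileal libraries overlapped, all of them above ceco-colonic, and ceco-colonic above inguinal. The log2 fold change against inguinal was 3.01 ± 0.136 (SE), 2.85 ± 0.135 and 2.02 ± 0.133 for jejunal, ileal and ceco-colonic nodes, with edgeR adjusted p of 4.87e-11, 9.68e-11 and 6.57e-09. The difference between gut positions was not tested for single genes. Jejunal library 1 was not the highest jejunal library for Ctrc, unlike for the enzymes Ctrb1 and Pnlip. The transcripts behind these levels differed: Ctrc-201 held 47.1% to 66.3% of Ctrc TPM in jejunal, ileal and ceco-colonic libraries, and 0% to 27.5% in inguinal libraries. Ctrc-201 carries the loss-of-function label, and the other Ctrc transcripts are labelled processed transcripts.

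Rnase1 was, after Gp2 and Ctrc, the remaining member that was higher in every gut position. It stood at 2.17, 0.423, 0.383 and 0.392 CPM in jejunal libraries 1 to 4, at 0.406 to 0.599 CPM in ileal, at 0.397 to 0.755 CPM in ceco-colonic and at 0.0770 to 0.0915 CPM in inguinal libraries. The inguinal libraries lay below all others without overlap. Log2 fold changes were 3.35 ± 0.523 (SE), 2.61 ± 0.527 and 2.93 ± 0.524, with edgeR adjusted p of 0.000111, 0.00118 and 0.000441. Without jejunal library 1 the jejunal value was 2.26 ± 0.231 with an adjusted p of 1.79e-06.

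**Figure D5:**
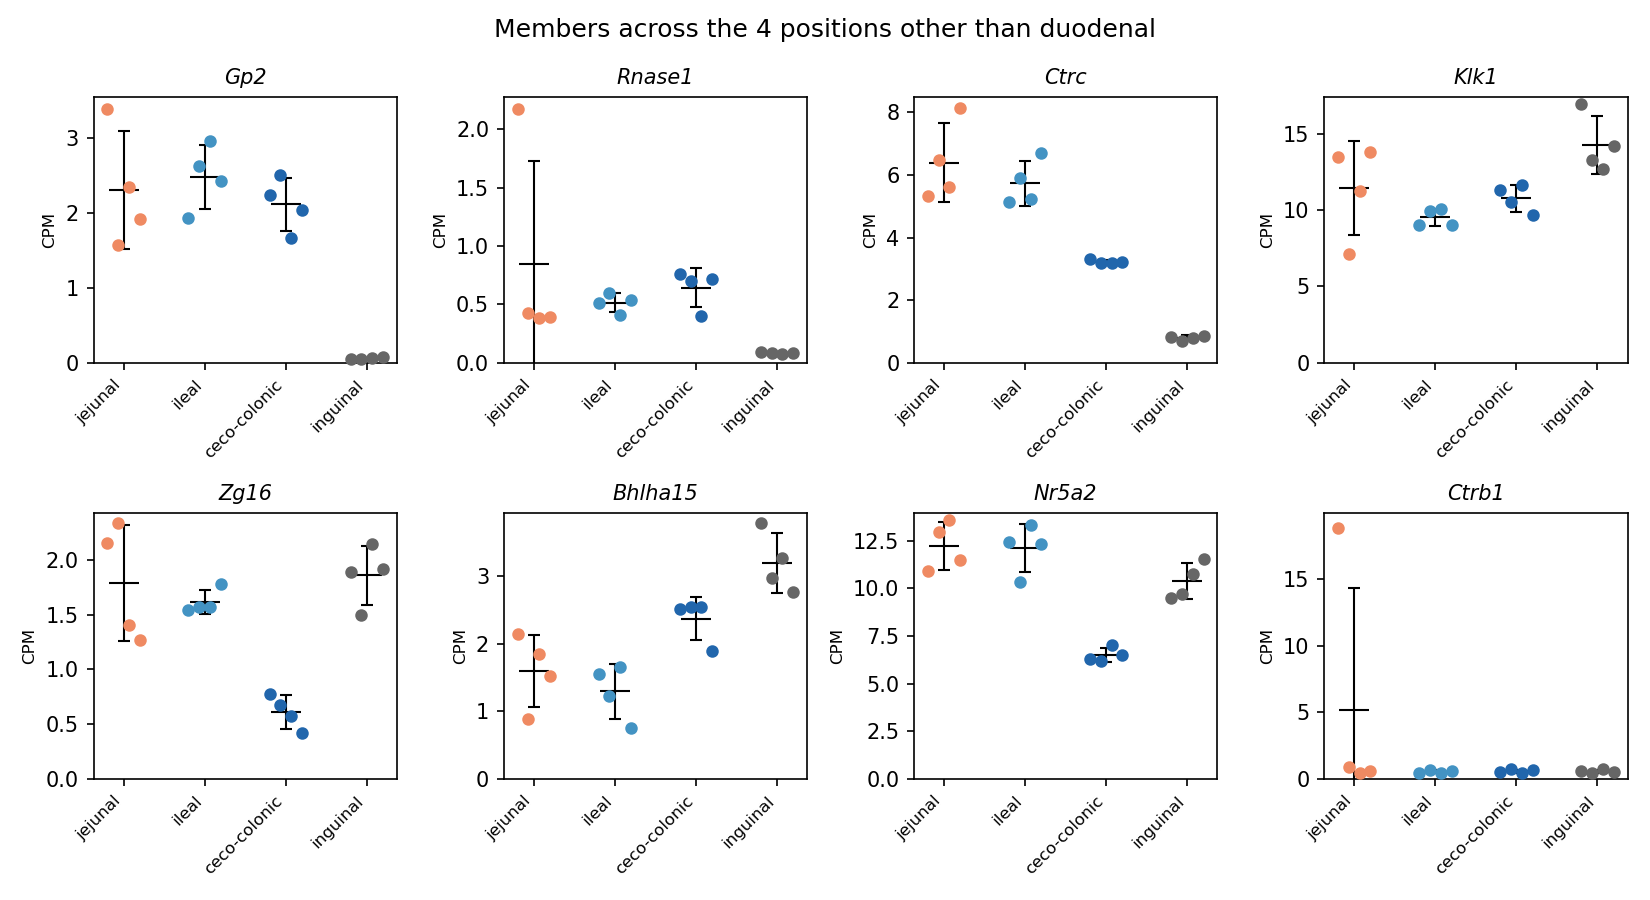
CPM of 8 members in the libraries of the 4 positions other than duodenal. Points are libraries, black marks with bars are mean ± SD over 4 libraries, and bars are cut at 0. Gp2, Rnase1 and Ctrc are lowest in inguinal nodes, Zg16 and Nr5a2 lowest in ceco-colonic nodes, and Ctrb1 is set by jejunal library 1.

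In jejunal against inguinal nodes 20 of 27 members were called, 19 higher and 1 lower, beside 23.7% of all genes (12.9% higher, 10.8% lower). The median log2 fold change was 2.89, against 0.00361 over all genes. The 16 higher members other than Gp2, Ctrc and Rnase1 were enzymes and secreted proteins such as Cel (log2 fold change 3.75 ± 0.991 SE, adjusted p = 0.00966 by edgeR), Cpa1 (3.53 ± 0.95, adjusted p = 0.0109) and Ctrb1 (3.25 ± 0.893, adjusted p = 0.0123). All 16 lost their call without jejunal library 1. Their values then lay between -0.20 for Clps and 0.56 for Cel, and Cela3b, Clps and Pnliprp1 changed sign. In this setting 6 of 27 members were called, 4 higher and 2 lower, beside 22.3% of all genes (12.4% higher, 9.88% lower). The count also fell to 7 with DESeq2, to 4 with limma-voom, to 5 with the replicate number as a block and to 4 in a fit of jejunal and inguinal libraries only. With the amylases taken as 1, 18 of 25 members were called, and 6 of 25 without jejunal library 1.

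The call of Prss2 depended on jejunal library 1. This trypsinogen stood at 0.774, 0.704, 0.852 and 0.842 CPM in inguinal libraries, at 6.30 CPM in jejunal library 1 and at 0.458, 0.347 and 0.411 CPM in jejunal libraries 2 to 4. With jejunal library 1 the difference was not called (log2 fold change 1.27 ± 0.672 SE, edgeR adjusted p = 0.205). Without it Prss2 was lower in jejunal nodes (-0.96 ± 0.172, edgeR adjusted p = 0.000535). Low levels were not particular to jejunal nodes. Ileal libraries, at 0.401 to 0.475 CPM, also lay below all inguinal libraries, and ceco-colonic libraries, at 0.468 to 0.758 CPM, overlapped them. Neither position was called against inguinal nodes in the fit that holds jejunal library 1.

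In ileal against inguinal nodes 5 of 27 members were called, beside 25.2% of all genes (13.5% higher, 11.7% lower): Gp2, Ctrc and Rnase1 higher, Klk1 and Bhlha15 lower. In ceco-colonic against inguinal nodes 5 of 27 were called, beside 23.5% of all genes (11.4% higher, 12.1% lower): Gp2, Ctrc and Rnase1 higher, Zg16 and Nr5a2 lower. In a fit of ceco-colonic and inguinal libraries only, 8 members were called, 4 higher and 4 lower. Over the members the median log2 fold changes were -0.0292 and 0.0445, against -0.0147 and -0.0173 over all genes. Ctrb1, Cela2a, Pnlip, Cpa1 and the amylases were not called in either comparison. Ctrb1, for example, had log2 fold changes of -0.0292 ± 0.883 (SE) and 0.063 ± 0.876. Both errors came from the fit that holds jejunal library 1, at 18.8 CPM, so they do not describe only the libraries compared. Every ileal and ceco-colonic library lay between the lowest and the highest inguinal library for Ctrb1, which held 0.421 and 0.725 CPM. Without jejunal library 1, the SE of Ctrb1 in jejunal against inguinal nodes was 0.249.

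Bhlha15, which other secretory cells also express, was lower in small intestinal nodes. It stood at 2.14, 0.888, 1.84 and 1.52 CPM in jejunal libraries 1 to 4, at 0.747 to 1.66 CPM in ileal, at 1.89 to 2.54 CPM in ceco-colonic and at 2.76 to 3.78 CPM in inguinal libraries. Log2 fold changes against inguinal were -0.998 ± 0.241 (SE) for jejunal and -1.31 ± 0.244 for ileal nodes, with edgeR adjusted p of 0.00521 and 0.000593. For ceco-colonic nodes the value was -0.44 ± 0.238 with an adjusted p of 0.217. Neither small intestinal position overlapped the inguinal libraries.

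Nr5a2 was lower in ceco-colonic nodes. It stood at 6.28, 6.19, 7.01 and 6.48 CPM there, and at 9.499 to 11.5 CPM in inguinal, 10.9 to 13.6 CPM in jejunal and 10.3 to 13.3 CPM in ileal libraries. The log2 fold change against inguinal was -0.68 ± 0.092 (SE) with an edgeR adjusted p of 2.59e-05. Zg16 was also lower in that node, at 0.779, 0.672, 0.574 and 0.415 CPM against 1.49 to 2.14 CPM in inguinal libraries. Its log2 fold change was -1.62 ± 0.208 with an adjusted p of 1.52e-05. For both genes the ceco-colonic libraries lay below those of the 3 other positions without overlap.

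Klk1 was lower in ileal nodes, at 9.03 to 10.04 CPM against 12.7 to 16.9 CPM in inguinal libraries (log2 fold change -0.59 ± 0.154 SE, edgeR adjusted p = 0.00784). In jejunal nodes it ranged from 7.11 to 13.8 CPM and was not called (-0.32 ± 0.153, adjusted p = 0.149).

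Duodenal libraries 3 and 4 could be set against the other positions without the pair that chose the genes. Of 29 members tested, 2 were called against the mean of the 4 other positions, beside 5.02% of all genes (3.3% higher, 1.71% lower): Gp2 (log2 fold change 1.42 ± 0.191 SE, edgeR adjusted p = 0.000131) and Ctrc (0.97 ± 0.123, adjusted p = 7.52e-05). That mean includes the inguinal nodes, where both genes were lowest. Duodenal libraries 3 and 4 held Gp2 at 2.17 and 2.77 CPM and Ctrc at 5.44 and 6.765 CPM. Both genes lay within the range of the jejunal, ileal and ceco-colonic libraries, 1.58 to 3.39 CPM for Gp2 and 3.17 to 8.14 CPM for Ctrc. Against inguinal nodes 3 were called, beside 16.7% of all genes (9.19% higher, 7.53% lower): Gp2 (5.39 ± 0.283, adjusted p = 2.56e-10), Ctrc (2.94 ± 0.153, adjusted p = 2.33e-10) and Rnase1 (2.68 ± 0.585, adjusted p = 0.00316). The trypsinogens, elastases, lipases and amylases were not called in these 2 libraries. Ctrb1 had 1.08 with an adjusted p of 0.520 against the mean of the other positions. Gp2, Ctrc and Rnase1 were also the members called higher in jejunal, ileal and ceco-colonic nodes against the same inguinal libraries.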

How the data were processed

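Polyadenylated RNA of whole Rag1-/- nodes was sequenced in 20 libraries, with RNA isolated by the PicoPure kit and libraries made with a NEBNext kit, per the labels' protocols. The tools kallisto, edgeR and limma appear in the submitters' processing notes, beside GRCm39 and mm10 as builds; which step used which, and in what version, is not stated there. The deposited gene table holds estimated counts (expected counts), and the authors' transcript tables hold estimated counts and TPM of 149419 transcripts per library. Of the gene table's values 3.36% equalled plain sums of transcript counts within 0.001 on the log2 scale, so it is not a plain sum of them, and how it was made is not stated.

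Rounded estimated counts were filtered by filterByExpr with position as the group (at least 10 counts, total at least 15), scaled by TMM and tested in edgeR 4.0.16 under R 4.3.3. A fit of all 20 libraries (29411 genes) gave the duodenal comparisons and a fit of the 16 others (28966 genes) the rest. A gene was called where its p, adjusted after Benjamini and Hochberg over the whole table, was under 0.05. The SE is model-based. Wilson intervals cover counting error only, and 3 counts were the floor for a count of 0. On simulated counts of 29411 genes the duodenal comparison recovered 90% of 1.5-fold and 100% of 2-fold changes with 5.94% false calls. The jejunal comparison, on 28966 genes, recovered 77% and 96% with 3.89%. Changes were planted only in better expressed genes that are not members, so these rates do not carry over to the members. Genes without a symbol numbered 135. Of 21 further acinar symbols 20 were found.

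The members, the other gene lists and the tests were chosen with earlier results of these data known. All members are named, with those of the 20 genes most alike that are reported here and examples from each list. A gene among the 20 is not reported here. Alternatives were other size factors, total counts, no low-count filter, DESeq2 1.42.0, limma-voom (limma 3.58.1), a replicate block, transcript sums, only the groups compared, and leaving out libraries. Salivary and hepatocyte lists were read too: 7 salivary genes, of which Bhlha15 is also a member, summed to 13.4 and 10.5 CPM in duodenal libraries 1 and 2 and to 0.852 to 3.93 CPM elsewhere, and 7 hepatocyte genes to 53.8 and 78.5 against 8.64 to 298 CPM. Mesothelial genes (4) summed to 1.58 and 2.37 against 1.01 to 7.64 CPM.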

Additional observations from a re-analysis of the deposited data

Results flagged for a closer look

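In each position of 4 libraries, a library was singled out where the gap between it and its nearest neighbour took up more of the range of the 4 than Dixon's critical value for 4 samples allows. Of 160 such tests (32 members in 5 positions), 37 singled out a library, and 24 of the 37 fell on jejunal library 1. Many members moved together, so the tests are not independent and their number was not set against chance. Duodenal levels lay in a high and a low pair, so the rule could hardly single out a library there. With the identical estimates of Amy2a2, Amy2a3 and Amy2a4 taken as 1, it was 22 of 33 in 150 tests. Jejunal library 1 was the highest jejunal library for the proteases Ctrb1 (18.8 CPM), Ctrl (4.12 CPM), Cela1 (10.4 CPM), Cela2a (11.2 CPM), Cela3b (3.86 CPM), Try4 (6.84 CPM), Try5 (4.95 CPM) and Prss2 (6.30 CPM). The carboxypeptidases Cpa1 and Cpb1 stood at 6.52 and 7.16 CPM there. The lipolytic genes stood at 8.40 CPM for Cel, 13.2 CPM for Pnlip, 3.80 CPM for Pnliprp1, 0.881 CPM for Pnliprp2 and 1.77 CPM for Clps. Amy2a2, Amy2a3 and Amy2a4 shared 1 estimate of 11.2 CPM. Among secreted proteins the values were 2.17 CPM for Rnase1, 0.671 CPM for Sycn, 2.09 CPM for Dmbt1, 1.96 CPM for Reg1, 0.214 CPM for Cuzd1 and 0.127 CPM for Serpini2. The 32 members summed to 187 CPM in this library, again far from the other jejunal libraries.

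The other 13 cases were spread over 8 libraries at low levels. The highest libraries of their position were ceco-colonic 2 for Try4 (0.427 CPM), inguinal 1 for Clps (0.189 CPM) and Dmbt1 (0.0794 CPM), ileal 3 for Serpini2 (0.00507 CPM), ileal 4 for Zg16 (1.78 CPM) and ceco-colonic 3 for Ptf1a (0.00717 CPM). The lowest were ileal 1 for Ctrl (1.46 CPM), ceco-colonic 1 for the shared estimate of Amy2a2, Amy2a3 and Amy2a4 (0.361 CPM), ceco-colonic 3 for Rnase1 (0.397 CPM), ileal 4 for Cuzd1 (0.00564 CPM) and ceco-colonic 4 for Bhlha15 (1.89 CPM).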

How the results depend on the processing

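Most counts of members called depended on a few libraries or on the test used. In the duodenal comparisons, limma-voom called 16 members against the mean of the 4 other positions (28 with edgeR) and 2 against inguinal nodes (27 with edgeR). Without duodenal libraries 1 and 2 together, 2 and 3 were called, with 1528 of all genes in the first comparison in place of 4903. There Cela1 turned to -0.17 (log2 fold change) against the other positions and to -0.15 against inguinal nodes, and Zg16 turned to -0.38 against inguinal nodes. Leaving out 1 library at a time, all genes called in the first comparison ranged from 2773 (without duodenal replicate 2) to 5111 (without jejunal replicate 1).

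Among the 4 positions other than duodenal, 23 members were called with edgeR, 9 with DESeq2, 7 with limma-voom and 7 with the replicate block. Leaving out 1 library at a time gave 8 (without jejunal replicate 1) to 24. In jejunal against inguinal nodes, 20 were called with edgeR, 7 with DESeq2, 4 with limma-voom, 5 with the replicate block and 4 in a fit of only the groups compared, and leaving out 1 library gave 6 (without jejunal replicate 1) to 21. In that comparison leaving out 1 library moved Cela3b between -0.033 and 2.88, Clps between -0.20 and 3.13 and Pnliprp1 between -0.14 and 3.65, each lowest without jejunal replicate 1. In ceco-colonic against inguinal nodes a fit of only the groups compared called 8 members in place of 5. The cause of the differences between tests was not tested. A fit of only the groups compared was not run for duodenal against the mean of the others, which uses all groups.

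The replicate numbers share only a number by the labels. Deviations of same-numbered libraries correlated at -0.0863 to 0.357 (median 0.0750, 40 pairs), and 17 of 20 libraries correlated best with their own number, a hint from the data and not from the design. Members whose levels outside duodenal libraries 1 and 2 are near 0 rest on few counts there, which limits their comparison among positions.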
